A study of Bos taurus with 10 samples.

Results

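Total RNA of bovine IVF embryos, that is, embryos from oocytes fertilised in culture, was set against total RNA of adult bovine kidney. The comparison used 4 of the 10 arrays of the series, chosen by their titles: the 3 arrays of IVF embryo RNA and the array of kidney RNA. Bos taurus RNA was read with an array made for human transcripts. Each probe set is therefore named by the symbol of its human gene. Each embryo sample was a pool, and the labels give neither the day of development nor the number of embryos. The kidney RNA is called adult by the title of the series alone, no treatment is named, and the animal's age, breed and the part of the kidney taken are not stated by the labels. The other 6 arrays, of brain, heart, liver, lung, muscle and spleen, entered the normalisation and are cited beside single genes to show how kidney stood among adult tissues. All 10186 probe sets with values that were not manufacturer's controls were tested, of 22283 on the array, so that probe sets bright in kidney alone were treated like those bright in embryos alone.

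The kidney filters blood in the glomerulus and recovers most of the filtrate along the nephron. Cells of the proximal tubule do most of this work, with water channels, sodium-coupled carriers and scaffold proteins in a brush border, and they meet its energy cost largely by burning fatty acids in mitochondria. The early embryo is built of dividing cells that form an outer epithelium, the trophectoderm, and an inner cell mass. Trophectoderm also pumps sodium and water, to fill the blastocyst cavity, and it shares keratins, junctions and pump subunits with other simple epithelia.

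Intensities are given after quantile normalisation of all 10 arrays, which gives every array the same distribution, with a common median of 146. Differences are embryo mean minus kidney on the scale of log2(intensity + 72), where 72 is close to the lower quartile of the arrays, so the change of dim probe sets is understated. Median deposited intensities were 124 to 221 on the embryo arrays and 129 in kidney. GAPDH control probes at the 5′ end over those at the 3′ end, a measure of RNA integrity, gave 0.461 to 0.488 in embryos and 0.463 in kidney. The 5′ control for 18S rRNA gave 1594, 241 and 137 for the embryo arrays and 465 for kidney, so the first embryo array was above kidney and the others below it. Across all probe sets the Spearman correlation was 0.944 between the first and the second embryo array, 0.831 and 0.88 between these and the third, and 0.537 to 0.645 between embryos and kidney. Some genes of renal tubules were bright on the kidney array and others were not. SLC22A6, the organic anion carrier OAT1, read 404 in kidney and 0.18 in brain to 0.50 in spleen among the other tissues. For CDH16, a cadherin of kidney tubules, the values were 295 in kidney and 0.265 in spleen to 1.25 in liver. LRP2 and CUBN, receptors of the proximal tubule, went the other way, with 52.8 and 144 in kidney. LRP2 read 287 in brain, and CUBN 808 in spleen. Of the 3 markers named for this comparison, AQP1 and PDZK1 were bright in kidney, whereas ATP1B3 was bright in embryos.

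The embryos differed from kidney in both directions. Limma called 725 of the 10186 probe sets higher in embryos (7.12%) and 855 lower (8.39%) after Benjamini-Hochberg adjustment at 0.05, and 3405 had an unadjusted p under 0.05. For genes, each read by the probe set that was brightest over both groups, 441 of 6732 were higher (6.55%) and 590 lower (8.76%), with a median difference of 0.0052. Shares of a gene list are set beside these shares of all genes. With no model of the spread, all 3 embryo arrays were at least 2-fold above kidney for 462 probe sets (4.54%) and at least 2-fold below it for 588 (5.77%), each value taken with 72 added. Counted by gene, 301 were at least 2-fold above (4.47%) and 422 at least 2-fold below (6.27%). At any size of difference, all 3 lay above kidney for 3935 (38.6%) and below it for 3648 (35.8%).

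The p-values carry an assumption that the data cannot check. Kidney had 1 array, so the spread came from the 3 embryo arrays and the kidney array was taken to vary like them. An exact permutation of 3 arrays against 1 has 4 splits and cannot go below a two-sided p of 0.5. Nothing in the labels says that the embryo pools were separate, so their spread may be technical. Without the first embryo array 0 probe sets were called higher and 8 lower, and 2974 had an unadjusted p under 0.05. Without the second, limma called none (2072 unadjusted), and without the third it called 1049 higher and 984 lower. Of 1031 called genes, none changed sign or moved by over 1.5 times in any of these 3 leave-outs. These genes were called on the same arrays, and each leave-out kept the same kidney value. The stable differences therefore cannot say how kidney varies. When the spread between the 6 other tissues entered the estimate, 77 probe sets were higher and 40 lower. The genes that passed that stricter fit are named beside their groups, and calls in the text are otherwise those of the main fit.

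**Figure D1:**
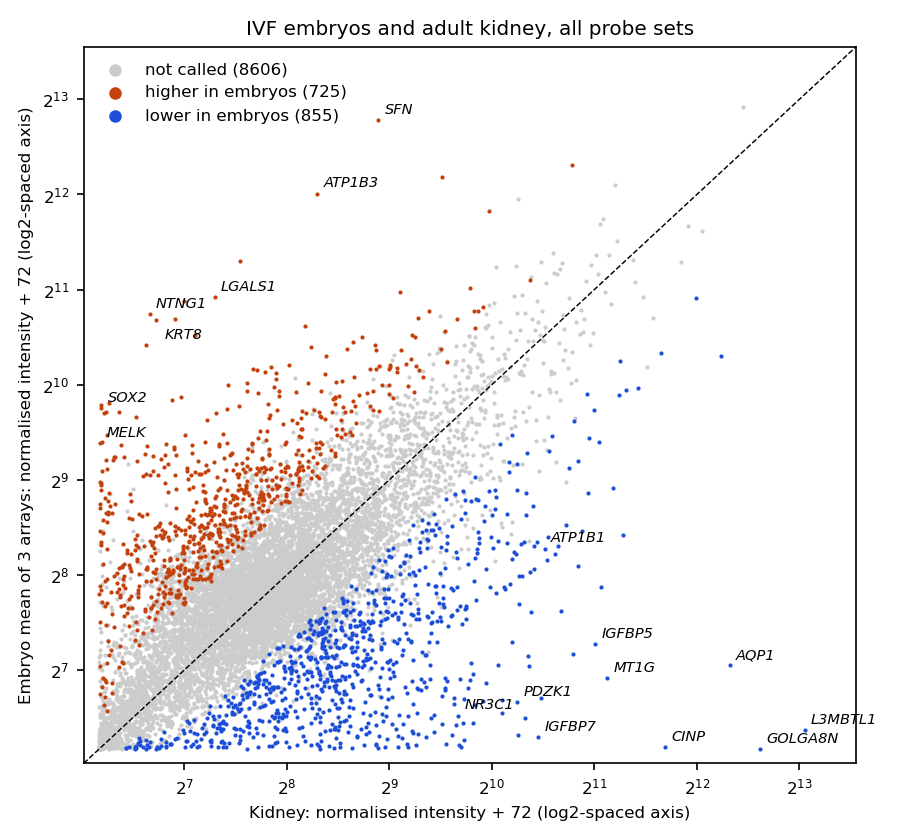
Normalised intensity in kidney (horizontal axis) against the mean of the 3 embryo arrays (vertical axis) for all 10186 probe sets, each with 72 added, on log2-spaced axes; the dashed line marks equal values. Colours mark the 725 probe sets called higher and the 855 called lower in embryos, and AQP1, L3MBTL1 and GOLGA8N lie far below the line while SFN and ATP1B3 lie far above it.

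Among genes brighter in kidney the water channel AQP1 stood out. AQP1 carries water across the membranes of proximal tubule, thin descending limb and endothelium. Its brighter probe set read 66.6, 57.2 and 57.3 on the embryo arrays and 5038 in kidney, which is -5.27 ± 0.14 (SE, limma adjusted p = 0.00292) on the log2 scale. No embryo array came near the kidney value, and the other tissues lay between, at 123 in brain to 2964 in lung. Its other probe set read 9.61 in embryos and 373 in kidney, a difference of -2.45. PDZK1, a scaffold that holds transporters in the brush border of the proximal tubule, read 40.6, 28.3 and 18.4 on the embryo arrays and 1143 in kidney (-3.59 ± 0.16 SE, limma adjusted p = 0.00479). Here the 6 other tissues were as dim as the embryos, at 4.15 in brain to 28.6 in liver.

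For L3MBTL1, GOLGA8N and CINP a probe set was bright in kidney and close to 0 on every other array. L3MBTL1, a chromatin compaction protein, read 8428 in kidney, 2.5, 17.4 and 11.5 on the embryo arrays and 0.18 in spleen to 11.1 in lung in other tissues, a difference from embryos of -6.69 ± 0.15 (SE, limma adjusted p = 0.00191). The other L3MBTL1 probe set did not share this, at 72 in embryos and 108 in kidney. GOLGA8N, of a golgin family with near-identical human copies, read 6224 in kidney, was listed at 0 on all embryo arrays and reached 0 in brain to 0.91 in lung elsewhere (limma adjusted p = 0.00082). CINP, a protein of replication and checkpoint control, read 3228 in kidney against 0.155, 0.35 and 1.76 on the embryo arrays (-5.5 ± 0.078 SE, limma adjusted p = 0.00082). With a single kidney array, these values have no replicate, and GOLGA8N and CINP each had no further probe set with a value.

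Binding proteins, a metallothionein and enzymes followed. IGFBP7, a secreted binding protein of vessels and matrix, read 8.17, 6.63 and 5.16 on the embryo arrays and 1329 in kidney (-4.15 ± 0.14 SE, limma adjusted p = 0.00432). Its other probe sets read 96.1 in embryos and 180.2 in kidney, and 0.988 in embryos and 56.3 in kidney, so the size of the difference depended on the probe set. IGFBP5, an insulin-like growth factor binding protein, read 81.8, 62.2 and 104 against 1988 (-3.74 ± 0.21 SE, limma adjusted p = 0.00555), and its other probe set 239 in embryos and 453 in kidney. MT1G, a metal-binding metallothionein, read 70.3, 37.2 and 38.2 against 2157 (-4.22 ± 0.22 SE, limma adjusted p = 0.00545), and liver was brighter than kidney, at 2773. ACAA2, a mitochondrial thiolase of fatty acid oxidation, read 7.81, 27.1 and 29.7 against 1023 (-3.56 ± 0.21 SE, limma adjusted p = 0.00566). CFI, the complement factor I protease, read 32.2, 31 and 28.3 against 1026 (-3.42 ± 0.14 SE, limma adjusted p = 0.00441), with 11.1 in heart to 1294 in liver among other tissues. PEX19, a chaperone of peroxisomal membrane proteins, read 0.91, 0.80 and 0.58 against 758 (-3.51 ± 0.13 SE, limma adjusted p = 0.00441), while its other probe set read 178 in embryos and 136 in kidney. ZBTB20, a transcriptional repressor, completed the 12 largest falls at -3.47, and its 3 probe sets were all lower in embryos. Of these 12 genes, L3MBTL1, GOLGA8N, CINP, IGFBP5, PDZK1 and ZBTB20 also passed in the fit that includes the spread between tissues. Without the second embryo array AQP1 had a difference of -5.33 with a limma adjusted p of 0.103, and PDZK1 of -3.59 with 0.103.

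**Figure D2:**
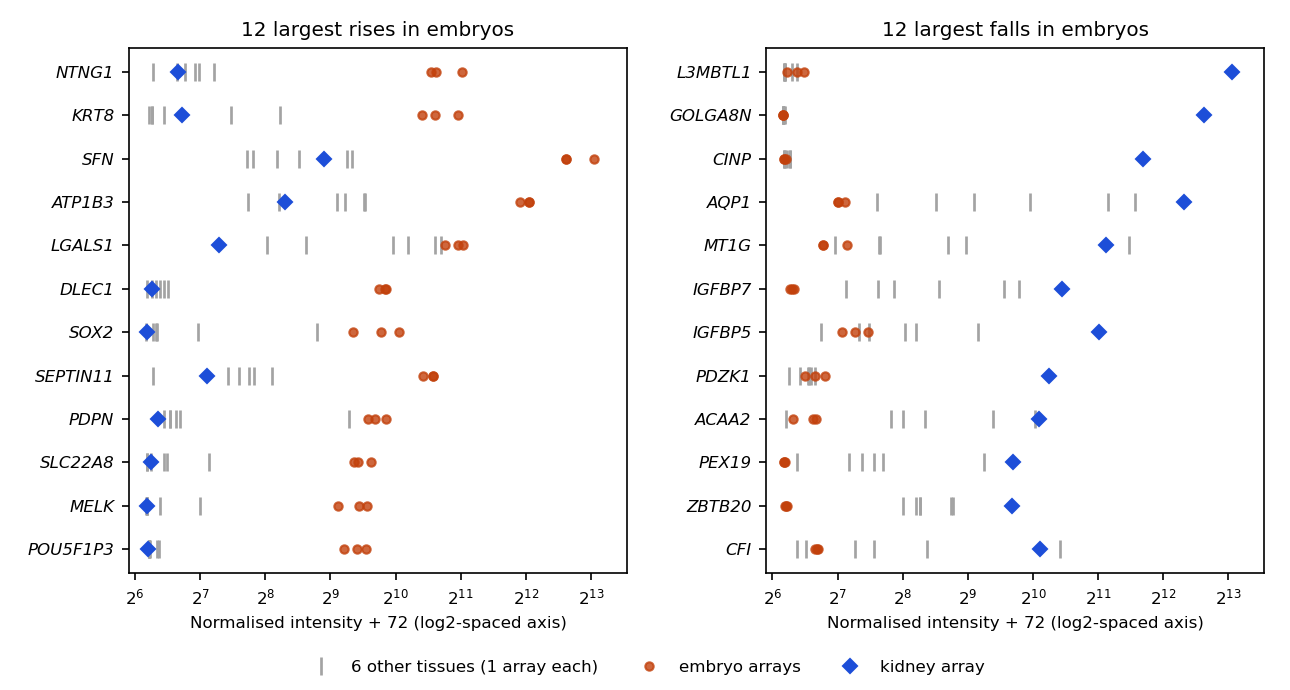
Normalised intensity with 72 added, on a log2-spaced axis, for the 12 genes with the largest rises (left) and the 12 with the largest falls (right) in embryos; circles are the 3 embryo arrays, the diamond is the kidney array and grey ticks are the 6 other tissues. Genes were picked with all 3 embryo arrays on the same side of kidney, so circles and diamond are apart by construction. Among the falls, a tick lies above the kidney value for MT1G and CFI.

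Whether a difference from kidney was also a difference from other adult tissue was tested by kidney against the mean of the 6 other tissues. Limma called 7 of 10186 probe sets higher in kidney (0.0687%) and none lower, and 420 had an unadjusted p under 0.05. Those with a name were L3MBTL1 (log2 difference 6.82, limma adjusted p = 4.02e-05), GOLGA8N (6.45, 6.96e-05), CINP (5.47, 0.000384), PDZK1 (3.74, 0.00669), TRIM13 (2.84, 0.0123) and PRODH2 (1.99, 0.0067). TRIM13 and PRODH2 are named because this count was small, after their values were seen. On simulated data the test of kidney against the other tissues made 38 false calls, so its adjusted p-values may not hold the 0.05 limit. TRIM13, a ubiquitin ligase, read 52.4, 48.7 and 55.7 on the embryo arrays and 827 in kidney. PRODH2, a mitochondrial enzyme of hydroxyproline breakdown, read 131, 97.8 and 92.4 and 763. AQP1 did not pass this test (2.67, limma adjusted p = 1), its lung and heart values being 2964 and 2217. Kidney was the brightest of the 7 tissues for 243 of the 590 genes lower in embryos (41.2%), for 8 of the 441 genes higher (1.81%) and for 880 of all 6732 genes (13.1%). The calls themselves favour high kidney values among the 590 and low ones among the 441, so these shares are a description.

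A large share of proximal tubule genes were brighter in kidney. Of 38 measured, 16 were lower in embryos (42.1%, against 8.76% of all genes), 1 was higher and 21 were not called, with a median of -0.44. Their summed intensity was 16879 in kidney, 4549.7 to 5207 on the embryo arrays and 4789 to 7054 in the other tissues. Kidney thus lay above every other array in this sum. Kidney was the brightest tissue for 12 of the 16, beside 41.2% of all genes lower in embryos.

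Transporters of the tubule's membranes made up much of this group. SLC4A4, the sodium bicarbonate carrier of the basolateral membrane, read 19.3, 8.34 and 17.5 on the embryo arrays and 830.3 in kidney (-3.38 ± 0.15 SE, limma adjusted p = 0.00479). Its other probe sets did not pass, at 356 in embryos and 396 in kidney, and 141 in embryos and 99.3 in kidney. SLC22A6 read 0.27, 0.50 and 0.40 against 404, a difference of -2.72 ± 0.048 (SE, limma adjusted p = 0.00136), and was close to 0 outside kidney. SLC7A7, a carrier of basic amino acids, read 214, 181 and 149 against 1186 (-2.32 ± 0.2 SE, limma adjusted p = 0.011). SLC3A1, the heavy chain of the cystine carrier, read 35.7, 38.5 and 45.1 against 251 (-1.53 ± 0.1 SE, limma adjusted p = 0.00658). SLC27A2, a fatty acid carrier and acyl-CoA synthetase, differed by -2.09.

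Enzymes and an endocytic adaptor of the same cells were lower in embryos as well. GATM makes guanidinoacetate, the precursor of creatine, and read 67.7, 57.4 and 130.2 against 1105 (-2.93 ± 0.31 SE, limma adjusted p = 0.0141); the third embryo array was brightest of the 3 and still far below kidney. ASS1, an enzyme of arginine synthesis, read 21.9, 17.6 and 3.45 against 661 (-3.09 ± 0.18 SE, limma adjusted p = 0.00566). MME, the brush border peptidase neprilysin, read 25.1, 19.4 and 27.3 against 268 (-1.83 ± 0.078 SE, limma adjusted p = 0.00479), and the other tissues did not exceed 12. The second MME probe set read 194 in embryos and 85.5 in kidney and did not pass. DAB2, an adaptor for receptor-mediated uptake of filtered protein, differed by -1.7 by its brightest probe set, whereas its 3 other probe sets read 122 in embryos and 105 in kidney, 135 in embryos and 99.9 in kidney, and 161 in embryos and 35.6 in kidney. MAF, a transcription factor of several tissues, differed by -2.45.

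Some defining genes of the proximal tubule did not pass, or moved the other way. LRP2 and CUBN, the megalin and cubilin receptors that take up filtered protein, are also made by extraembryonic epithelia. LRP2 read 55.7, 96.1 and 52.7 on the embryo arrays and 52.8 in kidney (0.15 ± 0.24 SE, limma adjusted p = 0.69), and CUBN 102, 120.0 and 103 against 144 (-0.26 ± 0.15 SE, limma adjusted p = 0.31). All 4 arrays were below the common median for both receptors, so these probe sets were dim in kidney itself. GPX3, a plasma glutathione peroxidase made in kidney, read 60.3, 74.4 and 207 against 97.4 (0.05 ± 0.49 SE, limma adjusted p = 0.957). The gene higher in embryos was SLC22A8, named for an organic anion carrier of the basolateral membrane, at 715, 617 and 584 on the embryo arrays, 3.67 in kidney and 0.50 in brain to 68.8 in lung elsewhere (3.23 ± 0.17 SE, limma adjusted p = 0.00546). SLC22A8 and PDZK1 were the calls of the list that passed with the spread between tissues, and GATM, SLC27A2, ALPL and FMO1 lost theirs with the values as deposited. Of the 17 calls, 1 was kept without the first embryo array, 0 without the second and 15 without the third, with shifts of at most 0.23 in log2 difference.

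Later nephron segments contributed fewer genes. Of 18 measured genes of the loop of Henle and distal tubule, 4 were lower in embryos (22.2%, against 8.76% of all genes) and none higher (median -0.14). PTH1R, the parathyroid hormone receptor, read 13.5, 22.9 and 24.5 on the embryo arrays and 476 in kidney (-2.57 ± 0.12 SE, limma adjusted p = 0.00479), where other tissues reached 51.7, and it passed with the spread between tissues. FXYD2, the gamma subunit that tunes the sodium pump in tubules, read 21.1, 10.9 and 9.91 against 396 (-2.45 ± 0.11 SE, limma adjusted p = 0.00479). A further FXYD2 probe set, whose annotation also lists a read-through gene, read 8.11 in embryos and 548 in kidney. PVALB, the calcium buffer parvalbumin, differed by -1.94 and WNK1, a kinase that controls salt transport, by -1.12. Both lost their call with the values as deposited. A second WNK1 probe set differed by -0.80 and did not pass.

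Of 16 collecting duct genes 2 were lower (12.5%, near the 8.76% of all genes) and none higher, with a median of 0.14 that turned to -1.51 over probe sets above the 75th percentile. They were CDH16, at 1.07, 0.92 and 0.915 on the embryo arrays against 295 in kidney (-2.33 ± 0.046 SE, limma adjusted p = 0.00158), and SCNN1A, a subunit of the epithelial sodium channel, at 24.3, 40.2 and 24.2 against 299 (-1.87 ± 0.12 SE, limma adjusted p = 0.00658). Both were dim in embryos and in the other tissues, where SCNN1A reached 33.8 in lung. AQP3, a water and glycerol channel of collecting duct and of trophectoderm, had 3 probe sets and none passed; the brightest over both groups read 118, 156 and 216 against 96.1 (0.46 ± 0.28 SE, limma adjusted p = 0.328).

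The glomerulus was read through genes of podocytes, the cells of its filter. Of 16 podocyte genes 4 were lower (25%, against 8.76% of all genes) and 1 higher (6.25%, near the 6.55% of all genes), with a median of -0.23, and their summed intensity was 4483 in kidney and 4479.9 to 4970.1 on the embryo arrays. PTPRO, a receptor phosphatase of podocytes, read 47.9 in embryos and 221 in kidney (-1.29 ± 0.18 SE, limma adjusted p = 0.0234). COL4A5, a collagen chain of the glomerular basement membrane, differed by -0.81, DACH1, a transcription cofactor, by -0.94 and TCF21, a mesenchymal transcription factor, by -0.86. These 4 calls were lost with the values as deposited. ACTN4, an actin crosslinker found in many cells, was higher in embryos, at 1683 ± 167 (SD, n = 3) against 596 (1.39 ± 0.17 SE, limma adjusted p = 0.0184). PDPN, which podocytes also make, was not in this list. It was higher in embryos by its brightest probe set (3.35), while the other (0.067) did not pass.

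A minority of kidney transcription factors separated the groups. Of 20 measured, 6 were lower in embryos (30%, against 8.76% of all genes) and none higher, with a median of -0.17. PAX2, needed to form the nephron, read 4.72, 27 and 17.7 on the embryo arrays and 419 in kidney (-2.48 ± 0.16 SE, limma adjusted p = 0.00658), and other tissues reached 20.3. Its second probe set read 202 in embryos and 142 in kidney, so the PAX2 probe sets did not move together. EMX2, a factor of the urogenital ridge and cortex, read 2.19, 3.63 and 0.090 against 542 (-3.05 ± 0.08 SE, limma adjusted p = 0.00287), with brain at 201. SALL1, a factor of the nephron's progenitors, differed by -1.9, EMX1 by -1.95, and TSC22D3, a target of glucocorticoids, by -1.46. PAX8, the partner of PAX2, had 5 probe sets and none passed, the brightest reading 234, 223 and 184 against 275. ZBTB20 alone of this list passed with the spread between tissues, with 185 in lung to 366 in liver in the other tissues.

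**Figure D3:**
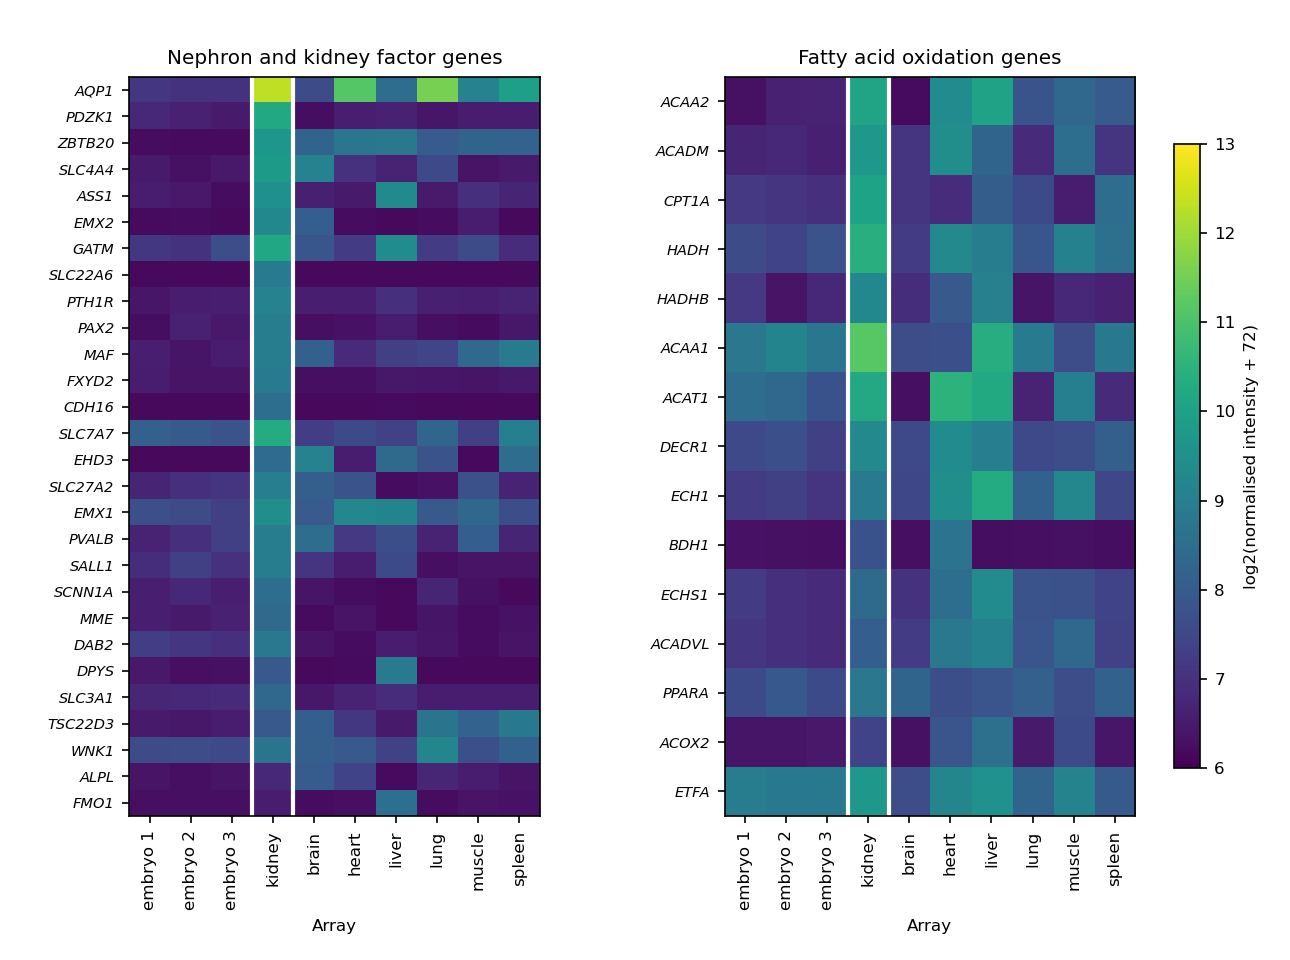
Colour gives log2(normalised intensity + 72) on each of the 10 arrays (columns, with white lines around kidney) for the 28 nephron and kidney factor genes called lower in embryos (left rows) and the 15 fatty acid oxidation genes called lower (right rows), ordered by the size of the difference. SLC22A6, PTH1R, PAX2 and CDH16 are bright in kidney alone, whereas AQP1 is also bright in heart and lung, and several fatty acid oxidation genes are also bright in heart or liver.

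The sodium pump differed between the groups by its beta subunit. The pump exports sodium in exchange for potassium, and its beta subunits help it reach the membrane. ATP1B1, a beta subunit found in kidney tubules, read 218, 291 and 205 on the embryo arrays and 1392 in kidney (-2.25 ± 0.21 SE, limma adjusted p = 0.0124), and its other probe set 29.9 in embryos and 889 in kidney. ATP1B3 read 3779, 4181 and 4181 against 243, a difference of 3.71 ± 0.15 (SE, limma adjusted p = 0.00441). The groups did not overlap for either subunit, and they lay in opposite order. Lack of overlap alone was common, since all 3 embryo arrays lay above kidney for 37% of all genes and below it for 37.7%. ATP1B3 passed with the spread between tissues, and ATP1B1 lost its call with the values as deposited. Kidney was not the brightest tissue for ATP1B1, as the others read 553 in liver to 1539 in heart. Of 13 measured genes of the vacuolar proton pump, which acidifies endosomes and urine, 1 was higher (7.69%, near the 6.55% of all genes) and none lower. It was ATP6V0A2, a membrane subunit, at 1.45, and the list median was 0.16.

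Fatty acid oxidation had the lowest median of the 33 lists examined. Of 26 measured genes 15 were lower in embryos (57.7%, against 8.76% of all genes) and none higher, with a median of -1.09 against 0.0052 over all genes. All 3 embryo arrays were at least 2-fold below kidney for 11 of the 26, against 6.27% of all genes. The summed intensity was 13070.0 in kidney and 3429 to 3748 on the embryo arrays. CPT1A, which commits fatty acids to mitochondrial import, read 70.5, 60.7 and 51.3 on the embryo arrays and 997 in kidney (-3.01 ± 0.16 SE, limma adjusted p = 0.00533). ACADM, the medium-chain acyl-CoA dehydrogenase, read 33.6, 37.1 and 25.2 against 776 (-3.03 ± 0.15 SE, limma adjusted p = 0.00504). HADH, which carries out the next oxidation of the spiral, read 121, 96.8 and 151 against 1261 (-2.78 ± 0.21 SE, limma adjusted p = 0.00847), although a second HADH probe set read 359 in embryos and 540.0 in kidney and the remaining one 15.1 in embryos and 18.9 in kidney. Beside ACAA2, the remaining calls ran from HADHB (-2.49) and ACAA1 (-2.28) to ETFA (-0.84), an electron carrier. Kidney was the brightest tissue for 8 of the 15, beside 41.2% of all genes lower in embryos. Heart or liver was brightest for others, such as ACAT1 and ECH1. None passed with the spread between tissues, 8 passed with the values as deposited, and 14 without the third embryo array.

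The respiratory chain and the ATP synthase were examined next. Of 60 measured genes of oxidative phosphorylation, which makes ATP from the electrons that oxidation yields, none was lower in embryos and 5 were higher (8.33%, near the 6.55% of all genes), with a median of 0.18. The summed intensity was 25231 in kidney and 24879 to 26616 on the embryo arrays, so the groups overlapped. The largest of the 5 were COX11, an assembly factor of cytochrome oxidase (1.13), and ATP5MC2, a subunit of the ATP synthase ring (1.11), followed by NDUFS3 (1.04), ATP5PB (0.96) and COX5B (0.84). All 5 lost their call with the values as deposited, and 1 of them kept it at a common median. Of 22 citric acid cycle genes 2 were lower (9.09%) and 1 higher (4.55%), shares near those of all genes (8.76% and 6.55%), with a median of -0.16 that turned to 0.087 with the values as deposited. IDH2, the mitochondrial isocitrate dehydrogenase, differed by -1.6, OGDH, of the oxoglutarate dehydrogenase complex, by -0.89, and ME1, the cytosolic malic enzyme that yields NADPH, by 1.32.

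Genes of amino acid and glycine metabolism, which include synthesis as well as breakdown, were more often lower than higher in embryos. Of 27 genes 10 were lower (37%, against 8.76% of all genes) and 3 higher (11.1%, against 6.55%), with a median of -0.39. The lower genes included ASS1, GATM, HADH and PRODH2. MMUT, the methylmalonyl-CoA mutase, read 53.9, 47.7 and 42.4 on the embryo arrays and 601 in kidney (-2.49 ± 0.15 SE, limma adjusted p = 0.00566). PCCA and PCCB, the subunits of propionyl-CoA carboxylase that feed the same route, differed by -1.98 and -1.65. The higher genes belong to glycine and one-carbon supply or aldehyde removal: GCSH, of the glycine cleavage system, at 1.49, SHMT2, the mitochondrial serine hydroxymethyltransferase, at 1.44, and ALDH7A1 at 1.44. Among 12 genes of glucose and fructose handling, 1 was lower, GOT2 at -0.67, and 1 higher (each 8.33%, near the shares of all genes), the fructose carrier SLC2A5 at 0.82, and neither held with the values as deposited.

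Metal binding and detoxification genes were lower in embryos in 16 of 43 cases (37.2%, against 8.76% of all genes) and higher in 3 (6.98%, near the 6.55% of all genes), with a median of -0.36. Metallothioneins buffer zinc and copper. The 6 measured in this list were all lower by their brightest probe set: MT1G, MT1X (-2.6), MT1E (-2.4), MT1F (-2.1), MT1H (-2.03) and MT2A (-1.65). Their human sequences are near-identical, so these probe sets may read the same bovine transcripts and are uncertain as separate genes. A second MT1G probe set read 102 in embryos and 52.8 in kidney and did not pass. ALDH1A1, which makes retinoic acid from retinal, read 1.93, 0.92 and 0.32 on the embryo arrays and 471 in kidney (-2.89 ± 0.14 SE, limma adjusted p = 0.00479). CAT, the peroxisomal enzyme catalase, read 3.19, 1.7 and 1.91 against 359 (-2.54 ± 0.11 SE, limma adjusted p = 0.00479). On the embryo side were proteins of the thioredoxin system: PRDX2, a peroxiredoxin, read 1024, 871 and 902 against 163 (2.09 ± 0.17 SE, limma adjusted p = 0.00927), PRDX1 differed by 1.3 and TXN, thioredoxin, by 1.35. None of this list passed with the spread between tissues.

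Kidney also holds vessels, stroma and blood cells, and in bulk RNA fewer cells of a type and less RNA per cell cannot be told apart. Of 34 matrix and fibroblast genes 11 were lower in embryos (32.4%, against 8.76% of all genes) and 2 higher (5.88%, near the 6.55% of all genes), with a median of -0.31. FBLN1, fibulin 1, read 35.7, 43.4 and 54.5 on the embryo arrays and 912 in kidney (-3.08 ± 0.17 SE, limma adjusted p = 0.00553). Its other probe sets differed by -2.33, which passed, and by -0.11, which did not. The fibrillar collagen COL3A1 read 30.7, 48.7 and 40.8 against 799 (-2.96 ± 0.16 SE, limma adjusted p = 0.00555), with a further probe set at 174 in embryos and 131 in kidney. The genes higher in embryos were TIMP1, an inhibitor of matrix proteases, at 2.09 and FN1, fibronectin, whose 4 probe sets were all higher, by 1.8 to 3.46. IGFBP5 was the gene of this list that passed with the spread between tissues. The list's summed intensity was 14608 in kidney and 6009 to 7068 on the embryo arrays.

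Endothelial genes were lower in 6 of 22 cases (27.3%, against 8.76% of all genes) and higher in 1 (4.55%, near the 6.55% of all genes), counting AQP1 and IGFBP7, which other lists hold too. HEG1, a receptor of endothelial junctions, read 9.88, 7.1 and 6.76 on the embryo arrays and 708 in kidney (-3.29 ± 0.14 SE, limma adjusted p = 0.00479), its other probe set 176 in embryos and 131 in kidney. PDE2A, a cyclic nucleotide phosphodiesterase, differed by -2.55. The higher gene was ROBO4, at 0.87, which lost its call with the values as deposited. The other 15 genes were not called, among them the endothelial receptors PECAM1 (0.11), KDR (0.15), FLT1 (0.043) and TEK (-0.11). The summed intensity was 11350.0 in kidney, above the 4589 to 10069 of the other tissues, and 2424 to 3016 on the embryo arrays. AQP1 alone gave 5038 of this sum in kidney and 2964 in lung, and without it kidney would lie below lung. The part that vessels have in the AQP1 and IGFBP7 differences was not tested. Of 15 smooth muscle genes 4 were lower (26.7%, against 8.76%), led by MYLK, the myosin light chain kinase, at -2.47 and RGS5, a pericyte regulator, at -1.63, and none was higher. With the values as deposited RGS5, ACTA2 and MYH11 lost their call and MYLK kept it.

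Immune and MHC genes were lower in 6 of 27 cases (22.2%, against 8.76% of all genes) and none was higher (median -0.23). HLA-DRB1, of MHC class II, read 18.2, 6.63 and 18.1 on the embryo arrays and 275 in kidney (-2.01 ± 0.16 SE, limma adjusted p = 0.00941), and B2M, the light chain of class I, 242, 212 and 210.3 against 515 (-1.0 ± 0.15 SE, limma adjusted p = 0.0273). MHC genes are a multigene family, so which bovine gene each human probe set reads is uncertain. With the values as deposited 2 of the 6 calls held, HLA-DRB1 among them and B2M not. Of 4 measured blood cell genes, HBB, beta globin, was higher in embryos by its brightest probe set (2.05) and by a second (1.49), and lower by the third (-1.28), so no direction is given for it.

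A list of steroid and hormone response held receptors, ligands, binding proteins and target genes. Of its 43 measured genes 12 were lower in embryos (27.9%, against 8.76% of all genes) and none was higher (median -0.3). NR3C1, the glucocorticoid receptor, read 18.7, 24.5 and 16.1 on the embryo arrays and 743 in kidney (-3.15 ± 0.15 SE, limma adjusted p = 0.00479), and its 3 probe sets were all lower. The other tissues were near kidney, at 354 in liver to 751 in muscle, and kidney against their mean did not pass (limma adjusted p = 1). TGFBR2, a receptor for transforming growth factor beta, differed by -2.34, IGF2R, which clears IGF2, by -1.68, IGF1R by -1.5 and INSR, the insulin receptor, by -1.25. NR3C1, PTH1R and IGFBP5 passed with the spread between tissues, while IGF1R, IGF2R and INSR lost their call with the values as deposited.

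On the embryo side the 12 largest rises included epithelial, pluripotency and cell cycle genes. NTNG1, a membrane-bound relative of netrins, had the largest, at 1998, 1425 and 1503 on the embryo arrays and 29.2 in kidney (4.07 ± 0.25 SE, limma adjusted p = 0.00566). KRT8, a keratin of simple epithelia, read 1927, 1491 and 1278 against 33.8 (3.93 ± 0.27 SE, limma adjusted p = 0.00732). SFN, an epithelial 14-3-3 protein, read 6224, 8428 and 6224 against 404 (3.87 ± 0.24 SE, limma adjusted p = 0.00605), and its 3 probe sets rose by 3.69 to 3.87. Kidney tubules are simple epithelia too, yet the kidney array was dim for KRT8.

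LGALS1, the lectin galectin 1, read 1658, 1927 and 2024 on the embryo arrays and 85.1 in kidney (3.62 ± 0.18 SE, limma adjusted p = 0.005), and kidney was the dimmest tissue, the others being 188 in liver to 1590.2 in heart. DLEC1, a candidate tumour suppressor, read 786, 839 and 855 against 4.91 (3.55 ± 0.14 SE, limma adjusted p = 0.00441), and its 3 probe sets were higher. SEPTIN11, a septin of the cytoskeleton, read 1457, 1445 and 1294 against 65.3 (3.42 ± 0.16 SE, limma adjusted p = 0.00479), its other probe set 124 in embryos and 87 in kidney. For LGALS1 heart and lung were thus close to the embryos, whereas DLEC1 was dim in every adult tissue. PDPN, podoplanin, a membrane protein of podocytes and alveolar cells, read 848, 754 and 693 against 10.1 (3.35 ± 0.17 SE, limma adjusted p = 0.00532), its other probe set 138 in embryos and 127 in kidney. A probe set assigned to POU5F1P3, a human copy of POU5F1, read 679, 611 and 518 against 1.6 (3.19 ± 0.19 SE, limma adjusted p = 0.00566), and it is too like POU5F1 for the genes to be told apart. All of the 12 except LGALS1, SOX2 and PDPN passed with the spread between tissues. Without the second embryo array KRT8 had a difference of 3.96 with a limma adjusted p of 0.108.

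Trophectoderm genes went both ways. Of 23 measured, 7 were higher in embryos (30.4%, against 6.55% of all genes) and 4 lower (17.4%, against 8.76%), and the median was 0.031, below 0 with arrays scaled to a common median and over probe sets above the 75th percentile. The 7 were KRT8, SFN, ATP1B3, KLF5 (2.86), an epithelial and stem cell factor, KRT18 (2.71), the partner of KRT8, TFAP2C (2.46), a factor of trophectoderm, and SSBP1 (1.5), which binds mitochondrial DNA. KRT18 read 463, 365 and 386 on the embryo arrays and 0.73 in kidney. TFAP2C read 339, 353 and 365 against 5.35, with its other probe set at 188 in embryos and 37.1 in kidney. A second KLF5 probe set differed by 1.11 and did not pass. The summed intensity of the list was 17076 to 19241 on the embryo arrays and 6583 in kidney. Most of the embryo sum came from SFN (6224 to 8428), ATP1B3 (3779 to 4181) and KRT8 (1278 to 1927). Without these genes the sum of each embryo array would lie below that of kidney. The 4 lower genes were ATP1B1, DAB2, PKP2, a desmosome protein (-0.92), and ID2, an inhibitor of differentiation factors (-0.78). Of the 11 calls, 6 passed with the spread between tissues: KRT8, KRT18, TFAP2C, SFN, ATP1B3 and KLF5.

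Pluripotency genes were higher in 5 of 14 cases (35.7%, against 6.55% of all genes) and lower in none, with a median of 0.5. SOX2, a transcription factor of the inner cell mass, read 579.5, 802 and 989.7 on the embryo arrays and 1.01 in kidney (3.53 ± 0.32 SE, limma adjusted p = 0.0114). Kidney and 4 of the other tissues were below 10 for SOX2, while brain read 374 and lung 52.8. KLF4, another such factor, read 1078, 1120.1 and 1032 against 132 (2.49 ± 0.14 SE, limma adjusted p = 0.00555), and LIN28A, an RNA-binding protein of stem cells, 185, 205 and 138 against 3.94 (1.7 ± 0.18 SE, limma adjusted p = 0.0145). For KLF4 the other tissues ranged from 48.5 in liver to 1114 in lung, so lung was as bright as the embryos. Of the 5 calls, KLF5 alone passed with the spread between tissues. DNMT3B, which lays down new DNA methylation, differed by 1.57. The hypoblast gives rise to yolk sac. Of its 16 measured genes GATA6 (2.66 ± 0.15 SE, limma adjusted p = 0.00555) and FN1 were higher (12.5%, against 6.55% of all genes). DAB2 was lower (6.25%, near the 8.76% of all genes), and 13 were not called. The median was -0.04, and it was above 0 with the values as deposited and under both filters on dim probe sets. GATA6 read 517 in embryos and 20.8 in kidney, with heart at 409. Among 12 genes of oocytes, germ cells and the cumulus cells around the oocyte, DDX4, a germ cell RNA helicase (2.69), CTAG2, a cancer-testis antigen (2.18), and TNFAIP6, a cumulus matrix protein (0.72), were higher (25%, against 6.55% of all genes). HSD3B1, a steroid enzyme, was lower (-1.0), a share of 8.33%, near the 8.76% of all genes. With the values as deposited, TNFAIP6 and HSD3B1 lost their call.

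Many genes of cell division were higher in embryos. Of 40 mitotic genes 16 were higher (40%, against 6.55% of all genes) and none lower, with a median of 0.54. MELK, a kinase of dividing cells, read 623, 685 and 484 on the embryo arrays and 0.39 in kidney (3.2 ± 0.23 SE, limma adjusted p = 0.0076). CKS2, a partner of cyclin-dependent kinases, read 484, 655 and 459.9 against 7.96 (2.9 ± 0.24 SE, limma adjusted p = 0.00976). CDC25A, the phosphatase that activates those kinases, read 382, 347 and 339 against 0.28 (2.57 ± 0.12 SE, limma adjusted p = 0.00497). Kidney was far below each embryo array for all 3. CCNA2, cyclin A2, differed by 2.56 by its brightest probe set and by -0.39 by the other, which was dim in both. ASPM, a spindle protein, was listed at 0 in kidney and read 161, 203 and 90.1 on the embryo arrays. MELK, CKS2, CDC25A, CCNA2, CCNB1 and KIF20A passed with the spread between tissues.

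DNA replication genes were higher in 5 of 19 cases (26.3%, against 6.55% of all genes) and lower in none (median 0.27). DUT, which removes dUTP, read 836, 1156 and 1133 on the embryo arrays and 166 in kidney (2.21 ± 0.24 SE, limma adjusted p = 0.0146). RFC4, a subunit of the clamp loader, differed by 1.9, PCNA, the clamp, by 1.59 and RFC3 by 1.19. A second RFC3 probe set differed by 0.094 and did not pass. The other DUT probe sets differed by 1.33, which passed, and by 0.25, which did not. Of 49 chromatin genes 16 were higher (32.7%, against 6.55% of all genes) and 2 lower (4.08%, against 8.76%), with a median of 0.63. SMARCE1, a subunit of the SWI/SNF remodeller, read 343, 359 and 278 against 4.61 (2.37 ± 0.19 SE, limma adjusted p = 0.00886), and NASP, a chaperone of linker and core histones, 376, 304 and 307 against 6.22 (2.35 ± 0.18 SE, limma adjusted p = 0.00797). ANP32E, a histone chaperone, differed by 1.85, its other probe set by 0.23. The lower genes were MBD2, a reader of methylated DNA (-2.14, with 2 further probe sets that hardly differed, at -0.052 and -0.0013), and SMARCA4 (-0.75), a motor of the SWI/SNF remodeller. NASP and ASF1A passed with the spread between tissues, and 7 of the 18 calls held with the values as deposited.

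Genes of protein production and folding were more often called higher than lower in embryos. Of 52 ribosomal protein genes 10 were higher (19.2%, against 6.55% of all genes) and 1 lower (1.92%, against 8.76%), with a median of 0.53. All 3 embryo arrays lay above kidney for 40 of the 52, against 37% of all genes. RPL8 differed by 1.54, RPL14 by 1.52 and RPL23A by 1.39, while RPL27A was lower, at -0.94. The other RPL14 probe sets differed by 0.93, which passed, and by -0.38, which did not. Ribosomal proteins have many processed copies, so single members are uncertain. Of the calls, 2 of 11 held with the values as deposited and 6 at a common median.

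Ribosome biogenesis and translation factors were higher in 13 of 50 cases (26%, against 6.55% of all genes). They were lower in 1 case (2%, against 8.76%), with a median of 0.57. FBL, a nucleolar methyltransferase, read 256, 298 and 168 on the embryo arrays and 21.4 in kidney (1.72 ± 0.28 SE, limma adjusted p = 0.0329). EIF4E2, a cap-binding protein, differed by 1.71 and EIF2S2, an initiation factor subunit, by 1.55. EIF1AY differed by 1.57, and its X-linked copy could share its probes. Of the 14 calls, 4 held with the values as deposited. Chaperones were higher in 7 of 38 cases (18.4%, against 6.55%) and lower in 1 (median 0.52), with DNAJA1, a co-chaperone, at 1.79 and CCT4, a chaperonin subunit, at 1.78. CCT5, of the same chaperonin, was the lower gene, at -1.06 (2.63% of the list, against 8.76% of all genes). The other DNAJA1 probe set differed by 0.20 and did not pass. Proteasome genes were higher in 5 of 30 cases (16.7%, against 6.55%) and lower in none (median 0.65), led by PSMG2, an assembly factor, at 2.02 and PSMD4, a ubiquitin receptor, at 1.44. Of the 5, 1 held with the values as deposited and 2 at a common median. The other PSMD4 probe sets did not pass, at 0.13 and 0.44.

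Splicing and glycolysis genes were called at shares near those of all genes, which were 6.55% higher and 8.76% lower. Of 54 splicing genes 5 were higher (9.26%), led by SNRPA1 (1.86), a spliceosome protein, and 3 lower (5.56%), SF3B3 (-1.53), MBNL1 (-1.48) and MBNL2 (-0.84), with a median of 0.17. Of 21 glycolysis genes 1 was higher (4.76%), ALDOC (0.49), and 1 lower (4.76%), LDHB (-1.01), a lactate dehydrogenase subunit. Neither held with the values as deposited or without the third embryo array. A second LDHB probe set differed by -0.44 and did not pass. Junction and polarity genes were lower in 5 of 24 cases (20.8%, against 8.76% of all genes), and the 2 that were higher (8.33%, near the 6.55% of all genes) were KRT8 and KRT18. The lower ones were CDH16, PKP4 (-2.11), CDH2, N-cadherin (-2.08), ITGA6, an integrin of basal membranes (-1.35), and PKP2. CDH2 read 5.13, 6.8 and 22.7 on the embryo arrays and 279.9 in kidney. The median of this list was -0.28 and turned to 0.041 with the values as deposited.

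**Figure D4:**
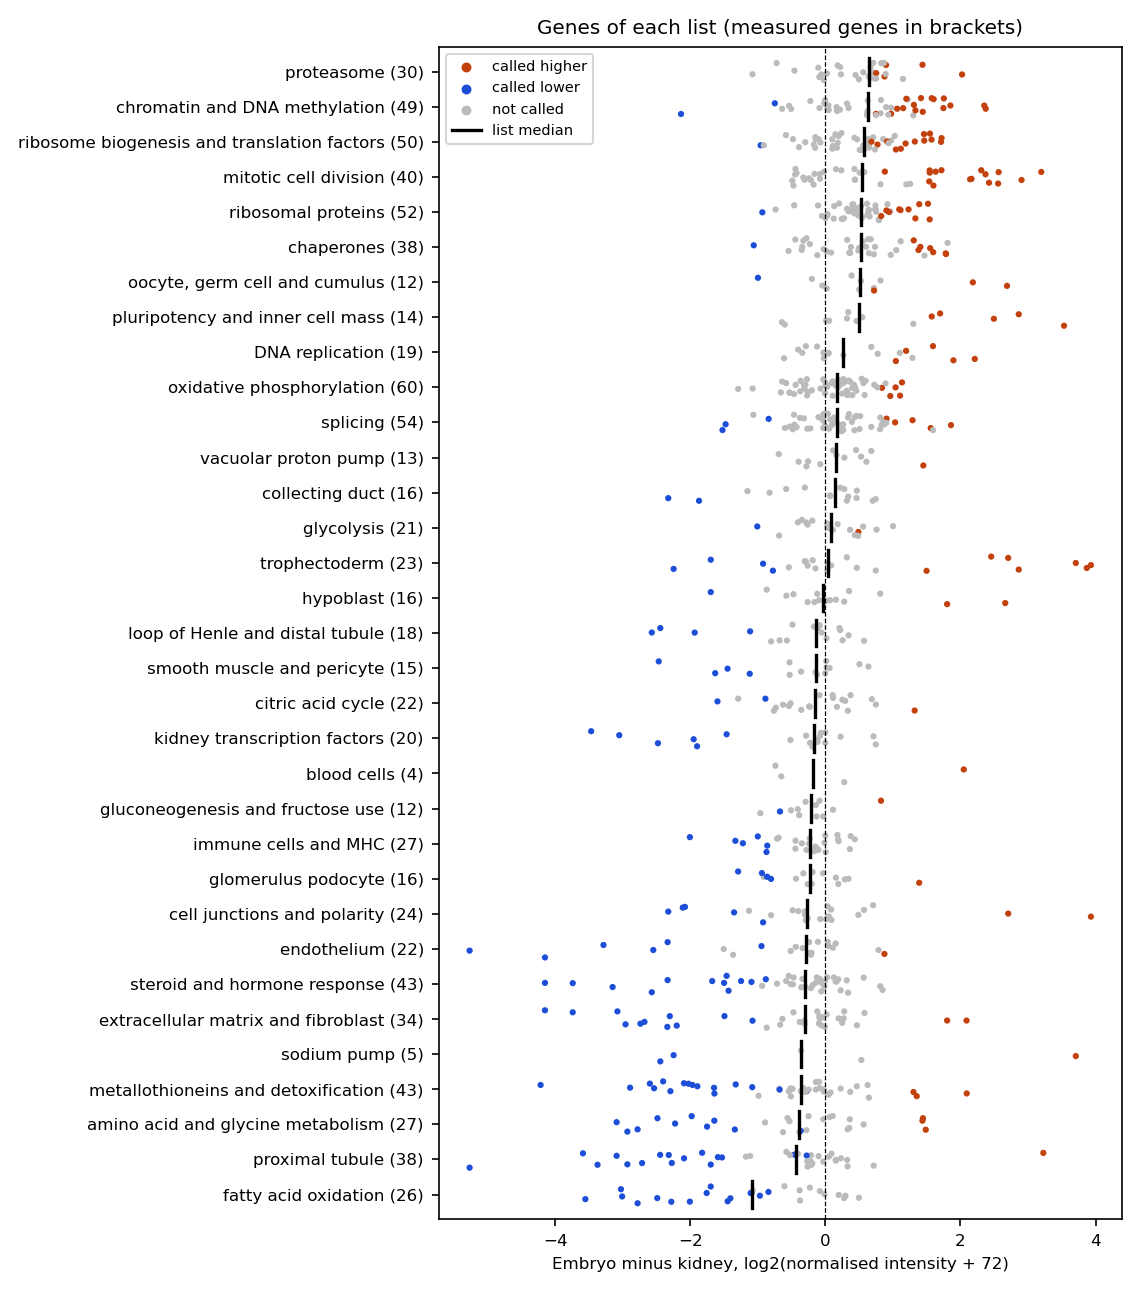
Embryo minus kidney differences on the log2(normalised intensity + 72) scale (horizontal axis) for the measured genes of each of the 33 lists (rows, ordered by median); points are genes, coloured where called higher or lower in embryos, and black bars are list medians. Fatty acid oxidation lies lowest, with a median of -1.09, and proteasome genes highest, with 0.65.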

How the data were processed

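The deposited values are linear intensities, 1 for each probe set on each array; the authors' software, background correction and scaling are not stated by the labels. Of 22283 probe sets, 10219 had values, 12064 were blank and 33 of those with values were controls. Groups came from the sample titles. By the platform annotation 8847 probe sets had 1 symbol, 479 several and 860 none, and 6305 of 6732 symbols (93.7%) matched RefSeq's table of bovine genes. Where bovine transcripts match human probes poorly a probe set reads dim, so levels were compared within probe sets, not between them. The number of arrays limits precision.

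Arrays were quantile normalised, since their deposited medians differed, and transformed to log2(intensity + 72), with an offset close to the arrays' 25th percentile. Limma 3.58.1 in R 4.3.3 (lmFit, eBayes, trend and robust, two-sided tests, Benjamini-Hochberg at 0.05) was fitted with 8 groups on all 10 arrays, with a median of 4.09 total degrees of freedom. Kidney against the 6 other tissues used 3 groups: embryos, kidney and the others. No filter on dim probe sets was set. On simulated data of 10186 probe sets the embryo test recovered 3 of 67, 32 of 67 and 49 of 66 planted changes of 1, 2 and 3 log2, with 0 false calls. The tissue test recovered 32 of 67, 57 of 67 and 64 of 66 changes of 2, 4 and 6 log2, with 38 false calls.

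Named genes were the 12 largest called rises and falls with every embryo array on the same side of kidney and the brighter group above the common median, up to 4 called genes per list (where none was called, the largest difference), and a fixed list; TRIM13, PRODH2 and some further list members were chosen after their values were seen. Members and lists were chosen with earlier results of these data known. Alternatives were other normalisations, offsets, filters, variance settings, models, a test against 2-fold, 1 probe set per gene, and leaving out each embryo array. Figures used matplotlib 3.10.9 in Python 3.11.15.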

Additional observations from a re-analysis of the deposited data

Results flagged for a closer look

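For 6 genes the embryo difference from kidney was not the same as the embryo difference from the mean of the 6 other tissues, by limma's test of kidney against those tissues. Kidney minus the other tissues was 6.82 log2 for L3MBTL1, 6.45 for GOLGA8N, 5.47 for CINP, 3.74 for PDZK1, 2.84 for TRIM13 and 1.99 for PRODH2, with kidney the brightest tissue for each. The other L3MBTL1 probe set read 72 in embryos and 108 in kidney. A further probe set of the 7 has no symbol in the annotation used here and is not named.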

How the results depend on the processing

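The counts of called probe sets depended on the values and on the spread used. Of 118 named genes called by limma, none changed sign under any alternative in which it had a value. These genes were called on the same arrays, and every alternative used the same kidney array, so the unchanged signs are a description. With the values as deposited, whose median difference over all probe sets was 0.19 log2 against 0.0237, 270 probe sets were called higher and 284 lower in embryos, and 82 of the 118 genes kept their call. With the spread between tissues in the estimate the counts were 77 and 40 (28 kept), and against a 2-fold limit 59 and 130 (53 kept). With 1 probe set per gene 457 were higher and 604 lower. With each embryo array left out in turn the counts ranged from 0 to 1049 higher and from 0 to 984 lower, and 4, 0 and 115 of the 118 genes were kept without the first, the second and the third. The other alternatives gave 507 to 880 higher and 792 to 938 lower. The higher share of all calls was 45.9%, 48.7% with the values as deposited and 38.7% at a common median. Probe sets called higher in kidney than in the 6 other tissues numbered 4 with the values as deposited and with a 4-fold smaller offset, 29 with a 4-fold larger one, 35 under each filter on dim probe sets and 28 with plain variance settings. Probe sets at least 2-fold apart on all embryo arrays numbered 795 above and 889 below kidney with the smaller offset and 112 and 200 with the larger. No paired analysis was possible because kidney had 1 array and shared no series of replicate numbers with the embryos. The cause of these shifts was not tested, except that fewer probe sets or arrays enter by construction.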
